A study of Mus musculus with 24 samples.

Results

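The genes described here are 10 transcripts of metal and oxidant defence: the metallothioneins Mt1, Mt2 and Mt3, the transcription factor gene Nfe2l2, and the antioxidant genes Gpx1, Srxn1, Nqo1, Gclc, Gclm and Txnrd1. A gene was taken as measured where a row of the array table carries its symbol alone, which held for 8 of the 10, among 14939 rows with 1 symbol and 23238 rows in all. Gclm and Txnrd1 were not measured by this rule, because their rows also carry the symbol of another gene. Transcript levels came from the right hippocampus, the side of the carotid artery ligation, of 24 BALB-c mice, each 10 days old and each measured on its own Affymetrix Mouse Exon 1.0 ST array. The values are log2 expression values made by RMA, a method that corrects background, normalizes between arrays and summarises probes, so a difference of 1 is a doubling.

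The 4 groups of 6 mice are named by the start of their titles. Epo_Y mice are labelled brain-injured and given high-dose recombinant erythropoietin (EPO), Sham_Y mice sham-injured and given high-dose EPO, Epo_N mice brain-injured with no EPO, and Sham_N mice sham-injured with no EPO. The titles can also be read with the first word as the treatment and the letter as the injury, which exchanges the meaning of Sham_Y and Epo_N. Under that reading Sham_Y mice would be injured without EPO and Epo_N mice uninjured with EPO, while Epo_Y (both) and Sham_N (neither) keep their meaning. No value depends on the reading, and group codes are used throughout. How much EPO was given and when, and at what age the mice were injured, the sources used here do not say. Array medians ran from 5.05 to 5.43 and correlations between arrays from 0.952 to 0.993. Arrays give no read depth, and their number limits the precision.

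Metallothioneins are small, cysteine-rich proteins that bind zinc and copper and also scavenge oxidants. The zinc sensor MTF1 switches on Mt1 and Mt2 through metal response elements (MRE), and both genes also respond to glucocorticoids and inflammatory signals. In brain Mt1 and Mt2 are mostly known from astrocytes, and Mt3 is a brain-rich form known mainly from neurons. Nfe2l2 encodes NRF2, which the adaptor KEAP1 holds down in unstressed cells. Oxidants and electrophiles release NRF2, which pairs with small MAF proteins at antioxidant response elements (ARE) of genes for glutathione synthesis, thioredoxin repair and quinone detoxification. Arrays measure the Nfe2l2 transcript, not the protein on which most of this control acts.

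Promoters are shown as a description of sequence, and no link between their letters and the differences given below was tested. The sequences are RefSeq's (build GRCm38.p6), the 250 bases before the annotated start, 5′ to 3′ on the gene's strand, and 7 of the 8 measured genes had an entry. Capitals mark matches to the ARE core (TGACNNNGC or TGAGNNNGC) or to the MRE core (TGCACNC or TGCGCNC), searched on both strands, and no matches overlapped in these genes. Mt1 (chr8:94178839-94179088, plus strand) has 1 MRE core in these 250 bases, and the 50 bases after the start add 2. Mt2 (chr8:94172368-94172617, plus strand) has 3 MRE cores, beginning 223, 128 and 50 bases before the start, and 1 ARE core that begins 79 bases before it. Mt3 (chr8:94152357-94152606, plus strand) has 1 ARE core. Srxn1 (chr2:152105274-152105523, plus strand) has 2 ARE cores, beginning 158 and 45 bases before the start, and 1 MRE core. Nfe2l2 (chr2:75704664-75704913, minus strand) has 1 ARE core, beginning 240 bases before the start.
Mt1: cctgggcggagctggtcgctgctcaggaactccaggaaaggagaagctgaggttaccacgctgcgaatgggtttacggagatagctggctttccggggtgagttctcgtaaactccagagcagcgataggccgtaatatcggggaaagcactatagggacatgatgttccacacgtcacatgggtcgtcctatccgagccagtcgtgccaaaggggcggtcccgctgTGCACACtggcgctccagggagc
Mt2: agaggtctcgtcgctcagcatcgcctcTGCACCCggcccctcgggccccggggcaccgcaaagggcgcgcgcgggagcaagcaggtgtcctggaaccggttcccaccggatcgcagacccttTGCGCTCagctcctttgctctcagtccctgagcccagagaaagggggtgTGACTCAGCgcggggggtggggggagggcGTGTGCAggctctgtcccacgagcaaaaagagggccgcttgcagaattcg
Mt3: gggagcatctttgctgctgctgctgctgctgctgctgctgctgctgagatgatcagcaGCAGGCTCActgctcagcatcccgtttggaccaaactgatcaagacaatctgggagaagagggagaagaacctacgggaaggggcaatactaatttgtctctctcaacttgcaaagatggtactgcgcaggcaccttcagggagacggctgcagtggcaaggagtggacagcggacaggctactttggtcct
Srxn1: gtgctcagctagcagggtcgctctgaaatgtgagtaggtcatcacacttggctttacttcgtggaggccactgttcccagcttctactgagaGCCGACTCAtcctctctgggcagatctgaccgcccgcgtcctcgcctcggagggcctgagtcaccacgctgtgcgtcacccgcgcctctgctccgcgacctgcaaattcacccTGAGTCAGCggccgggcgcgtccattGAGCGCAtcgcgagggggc
Nfe2l2: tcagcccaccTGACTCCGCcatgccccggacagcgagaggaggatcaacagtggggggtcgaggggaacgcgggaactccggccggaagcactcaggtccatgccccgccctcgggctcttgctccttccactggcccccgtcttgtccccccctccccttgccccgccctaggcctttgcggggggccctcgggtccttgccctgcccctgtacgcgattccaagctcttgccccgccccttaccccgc

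Among 32851 promoter windows of this length, 23.0% held at least 1 ARE core and 21.4% at least 1 MRE core, while 1.26% held 3 or more MRE cores, as Mt2 does. The Gpx1 and Nqo1 windows held no match to these letters. The 50 bases after the start, not printed here, add 2 MRE cores for Mt1, 1 each for Mt2 and Mt3, and 1 ARE core for Srxn1. Over the whole 300 bases 27.8% of windows hold an ARE core and 25.7% an MRE core. There 1.97% hold 3 or more MRE cores, as Mt1 (3) and Mt2 (4) do. The count for Mt1 thus depends on where the window ends. A match is a description of letters and not a bound site, and other start sites were not searched. On chromosome 8 the RefSeq gene order is Bbs2, Mt4, Mt3, Mt2, Mt1, Nup93, so the 3 metallothioneins described here are direct neighbours.

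The level of each gene was examined first. Mt1, Mt3 and Mt2 were among the brightest rows of the table, at percentiles 99.6, 99.0 and 98.5 of all rows by mean value. Gpx1, Srxn1 and Gclc stood at percentiles 82.9, 80.2 and 79.7, and Nfe2l2 at 64.9. Nqo1 averaged 4.59 over the 24 arrays, at percentile 43.5 and below the median of every array, so it carries little signal. These percentiles place rows on the array and do not rank transcripts against each other, since probes differ in brightness. Sham_Y had the highest mean for all 8 genes, and no gene passed in a comparison between the other 3 groups.

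**Figure D1:**
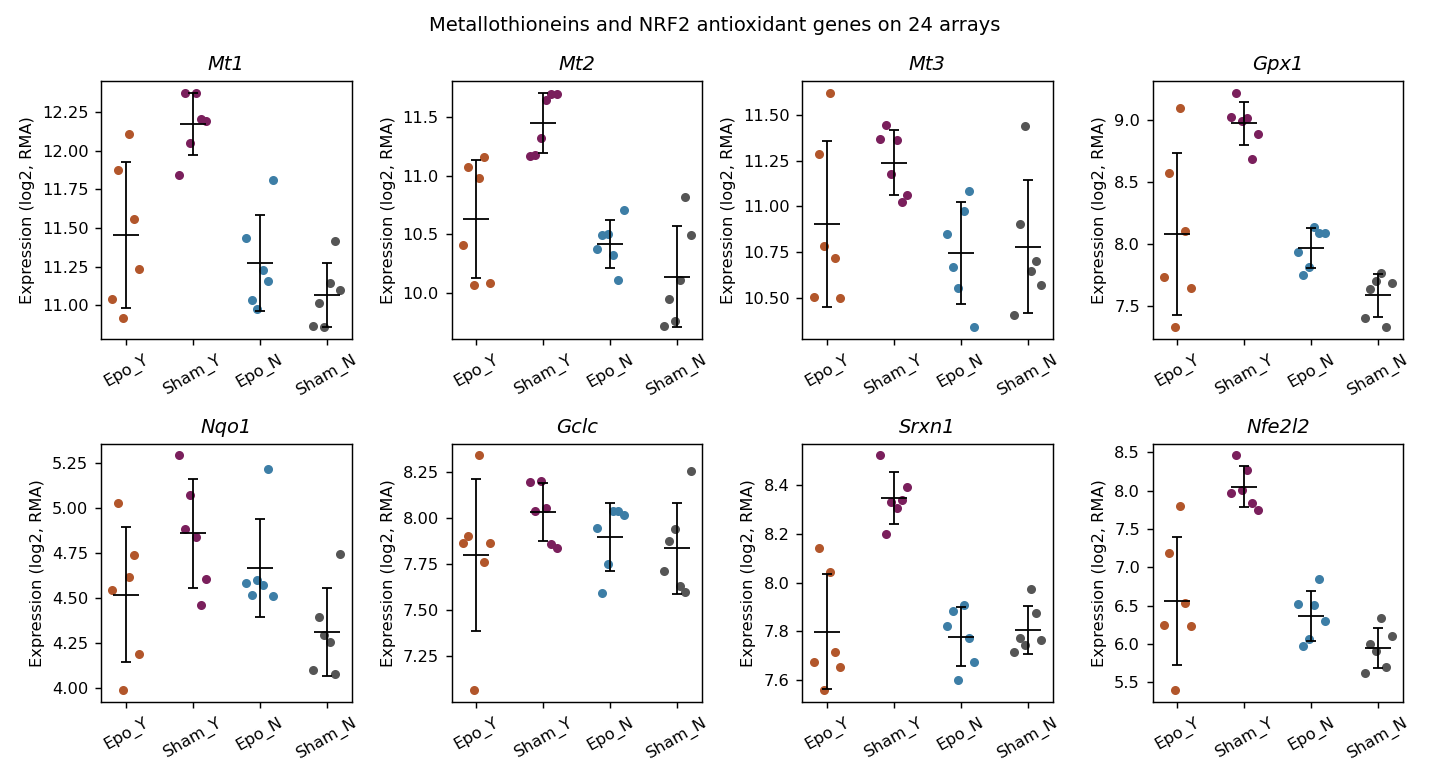
Log2 expression (RMA) of the 8 measured genes on each of 24 arrays, with 1 panel for each gene and groups in the order Epo_Y, Sham_Y, Epo_N and Sham_N; points are arrays, long bars means and whiskers 1 SD (n = 6 each). Sham_Y points lie above all Sham_N points for Nfe2l2, Mt1, Mt2, Gpx1 and Srxn1, and Epo_Y points are the most spread for all 8 genes.

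In Sham_Y hippocampi, set against Sham_N, 6 of the 8 genes were higher and none was lower: Nfe2l2, Gpx1, Mt2, Mt1, Nqo1 and Srxn1. By the labels this comparison asks what EPO does in uninjured brain, and by the other reading of the titles what injury does without EPO. Of all rows 19.1% passed, 11.5% as higher and 7.6% as lower (limma, p-values adjusted by Benjamini-Hochberg over 23238 rows, threshold 0.05). The median difference of the 8 genes was 0.83, beside 0.03 for all rows. In whole tissue, a change in the share of cells of a type and a change in RNA per cell cannot be told apart.

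The regulator showed the largest difference of the 8. Nfe2l2 lay between 7.75 and 8.46 in Sham_Y (median 7.99), against 5.62 to 6.34 in Sham_N (median 5.95). The groups were apart by more than the range of either. The difference was 2.11 ± 0.26 (SE, n = 6 each), a 4.30-fold higher level in Sham_Y (limma, adjusted p = 2.56e-06). The SE of a difference, here and below, comes from the limma fit, in which all groups share the same estimate of the spread.

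Of the metallothioneins, Mt1 and Mt2 passed and Mt3 did not. Mt1 ranged from 11.84 to 12.37 in Sham_Y (median 12.20) and from 10.86 to 11.42 in Sham_N (median 11.06). Mt2 ranged from 11.17 to 11.70 in Sham_Y (median 11.48) and from 9.72 to 10.81 in Sham_N (median 10.03). Every Sham_Y array was above every Sham_N array for both genes. Mt1 was higher by 1.11 ± 0.18, or 2.16-fold (limma, adjusted p = 5.15e-05), and Mt2 by 1.31 ± 0.20, or 2.48-fold (limma, adjusted p = 3.96e-05). Mt3 ranged from 11.02 to 11.45 in Sham_Y (median 11.27) and from 10.40 to 11.44 in Sham_N (median 10.67). Its groups overlapped, and its difference of 0.46 ± 0.19 did not pass (limma, adjusted p = 0.0878, interval 0.08 to 0.85 before adjustment). That Mt3 differs from Mt1 or Mt2 in response was not tested.

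Gpx1, the selenoenzyme that reduces hydrogen peroxide with glutathione, ranged from 8.69 to 9.22 in Sham_Y (median 9.01) and from 7.33 to 7.76 in Sham_N (median 7.66). All Sham_Y arrays were above all Sham_N arrays. The difference was 1.39 ± 0.20, or 2.62-fold (limma, adjusted p = 1.43e-05). Srxn1 encodes sulfiredoxin, which repairs overoxidised peroxiredoxins. It ranged from 8.20 to 8.52 in Sham_Y (median 8.33) and from 7.72 to 7.97 in Sham_N (median 7.77). These groups were apart too, by a smaller difference of 0.54 ± 0.09, or 1.45-fold (limma, adjusted p = 0.000129).

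Nqo1, the quinone reductase often used as a readout of NRF2, ranged from 4.46 to 5.29 in Sham_Y (median 4.86) and from 4.08 to 4.75 in Sham_N (median 4.27). The groups overlapped, with 4 of 6 Sham_Y arrays above all Sham_N arrays. The difference of 0.55 ± 0.17 passed as deposited (limma, adjusted p = 0.0229), but not after quantile normalization (0.42, adjusted p = 0.0617), after centring each array on its median (0.38, adjusted p = 0.0594) or with a letter code in the sample titles as a block (0.53, adjusted p = 0.0590). Gclc, the catalytic subunit of the rate-limiting enzyme of glutathione synthesis, ranged from 7.84 to 8.20 in Sham_Y (median 8.05) and from 7.60 to 8.25 in Sham_N (median 7.79). Its difference of 0.20 ± 0.15 did not pass (limma, adjusted p = 0.437), and its interval from -0.12 to 0.51 holds both no difference and a modest one. In all, 5 of the 8 genes had groups that did not overlap, as did 11.6% of all rows.

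Scaling of the arrays moved the counts. Array medians ran from 5.30 to 5.43 in Sham_Y and from 5.12 to 5.25 in Sham_N. Among rows that passed, 60.3% were higher in Sham_Y as deposited, 49.2% after quantile normalization and 29.5% after centring, when the median of all rows was 0.03, -0.02 and -0.15. Nfe2l2, Gpx1, Mt1, Mt2 and Srxn1 stayed higher under both scalings. The letter code in the titles has 7 values, whose meaning is not given. Within code 3D (2 arrays each), 3E and 3F (1 array each) all 8 genes had a higher mean in Sham_Y than in Sham_N. Nfe2l2 differed by 2.19, 1.50 and 2.06 in these codes, and Mt2 by 1.63, 1.59 and 0.88.

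In Epo_Y hippocampi, set against Sham_Y, 5 of the 8 genes were lower and none was higher: Nfe2l2, Gpx1, Mt2, Mt1 and Srxn1. By the labels this is the comparison of injury in mice given EPO, and by the other reading that of EPO in injured mice. Of all rows 13.9% passed, 7.83% as lower and 6.05% as higher. The median difference of the 8 genes was -0.63, beside -0.01 for all rows. The 6 Sham_Y arrays serve in this comparison and in that with Sham_N, so the values of both are given side by side and are not independent of each other.

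Nfe2l2 on the Epo_Y arrays had values of 6.24, 7.19, 5.40, 7.80, 6.54 and 6.24, against 7.75 to 8.46 in Sham_Y (median 7.99). The array at 7.80 reached the Sham_Y range, and the one at 5.40 was below every Sham_N array. The difference was -1.48 ± 0.26, a 2.80-fold lower level in Epo_Y (limma, adjusted p = 0.000346). Gpx1 ranged from 7.33 to 9.10 in Epo_Y (median 7.92), against 8.69 to 9.22 in Sham_Y (median 9.01). Its groups also overlapped, and it was lower by 1.86-fold (-0.89 ± 0.20, limma, adjusted p = 0.00284).

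Mt1 ranged from 10.92 to 12.11 in Epo_Y (median 11.40), against 11.84 to 12.37 in Sham_Y (median 12.20). Mt2 ranged from 10.07 to 11.16 in Epo_Y (median 10.69), against 11.17 to 11.70 in Sham_Y (median 11.48). The Mt1 groups overlapped, and all Mt2 values in Epo_Y lay just below the lowest in Sham_Y or further down. Mt1 differed by -0.72 ± 0.18 (limma, adjusted p = 0.00631) and Mt2 by -0.82 ± 0.20 (limma, adjusted p = 0.00686). Srxn1 ranged from 7.56 to 8.14 in Epo_Y (median 7.70), against 8.20 to 8.52 in Sham_Y (median 8.33). Its groups did not overlap, with a difference of -0.55 ± 0.09 (limma, adjusted p = 0.000206).

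Mt3, Nqo1 and Gclc did not pass in this comparison. Mt3 differed by -0.34 ± 0.19 (limma, adjusted p = 0.266), Nqo1 by -0.34 ± 0.17 (limma, adjusted p = 0.211) and Gclc by -0.23 ± 0.15 (limma, adjusted p = 0.365). Mt2 and Srxn1 were the 2 genes whose groups did not overlap, as 4.64% of all rows did not. In a fit that blocks on the title code Mt1 no longer passed (-0.64, adjusted p = 0.0518). Within codes 3A, 3D and 3F every gene had a lower mean in Epo_Y than in Sham_Y, except Gclc in 3F (0.03). Nfe2l2 differed by -1.26, -1.56 and -1.52 in these codes. The calls of these 5 genes held under quantile normalization and centring, although the share of higher rows among those that passed was 43.6% as deposited, 48.7% and 69.0%.

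**Figure D2:**
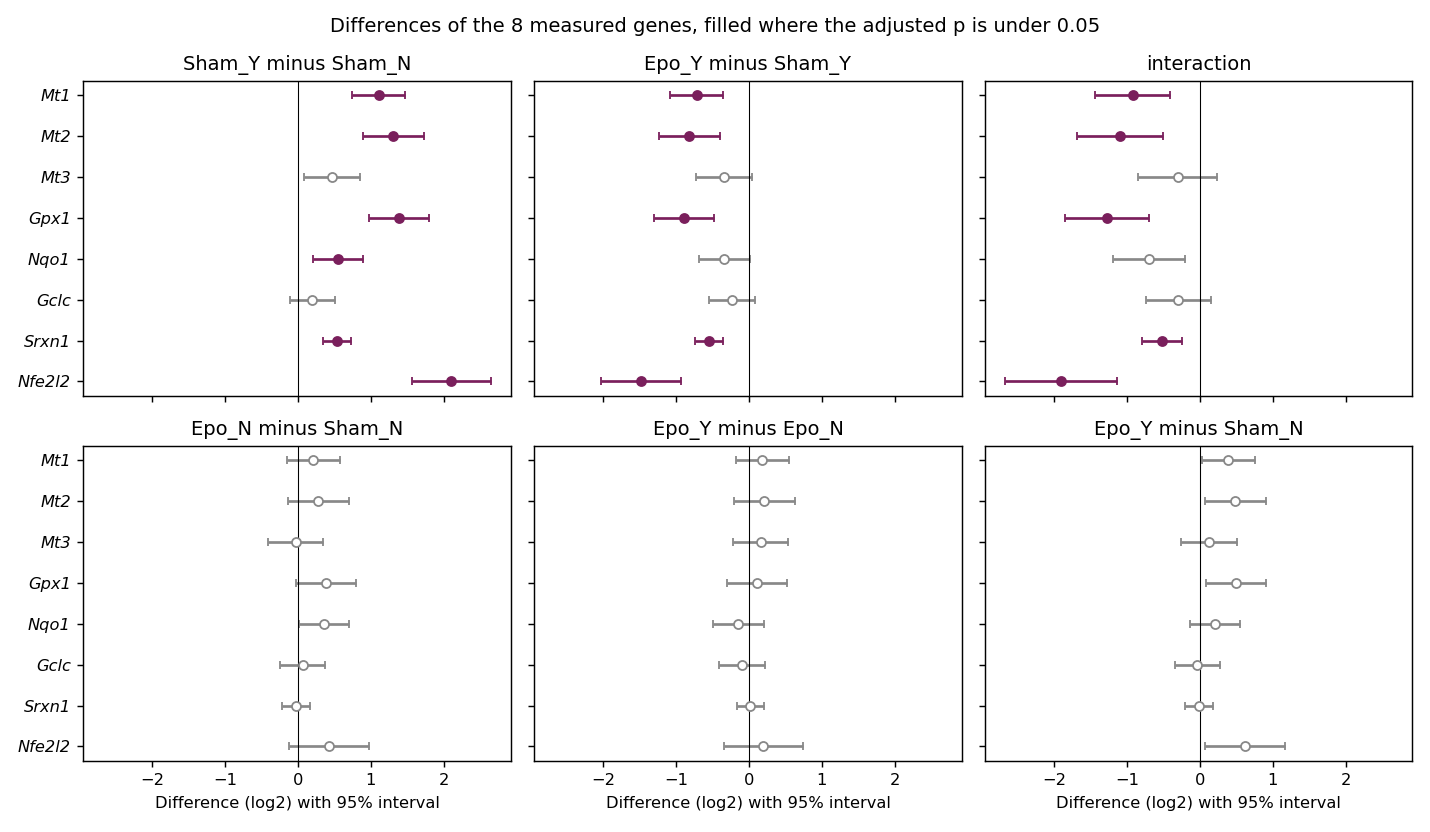
Log2 differences of the 8 measured genes in 6 comparisons, with 95% intervals before adjustment; filled points have an adjusted p under 0.05 (limma, n = 6 a group). Points are filled for 6 genes in Sham_Y minus Sham_N, for 5 in Epo_Y minus Sham_Y and for 5 in the interaction, and for none in the lower panels.

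The interaction asks whether the difference of Epo_Y from Epo_N differs from that of Sham_Y from Sham_N, and it is the same under both readings of the titles. It passed for 5 of the 8 genes, each in the negative direction, where 7.3% of all rows passed, 5.75% as lower and 1.55% as higher. The median over the 8 genes was -0.81, beside -0.08 for all rows. The same Sham_Y arrays enter the interaction, so it is not independent of the comparisons of Sham_Y given above. Nfe2l2 was 0.20 higher in Epo_Y than in Epo_N and 2.11 higher in Sham_Y than in Sham_N, an interaction of -1.91 ± 0.37 (limma, adjusted p = 0.00231). For Gpx1 these differences were 0.11 and 1.39, with an interaction of -1.28 ± 0.28 (limma, adjusted p = 0.00585).

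For the metallothioneins the interaction was -1.10 ± 0.29 for Mt2 (limma, adjusted p = 0.0199) and -0.93 ± 0.25 for Mt1 (limma, adjusted p = 0.0231). The Mt3 value of -0.30 ± 0.26 did not pass (limma, adjusted p = 0.553). Srxn1 had an interaction of -0.52 ± 0.13 (limma, adjusted p = 0.0158), which did not pass after quantile normalization (-0.39, adjusted p = 0.0840) or centring (-0.32, adjusted p = 0.0975). Nqo1 at -0.70 ± 0.24 (limma, adjusted p = 0.0794) and Gclc at -0.29 ± 0.21 (limma, adjusted p = 0.464) were also short of the threshold. In a fit that blocks on the title code, of these 5 interactions only that of Nfe2l2 still passed (-1.77, adjusted p = 0.0306), while Mt2 (-1.15, adjusted p = 0.0589), Gpx1 (-1.19, adjusted p = 0.0580), Srxn1 (-0.51, adjusted p = 0.0669) and Mt1 (-0.86, adjusted p = 0.115) did not.

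The other 3 comparisons gave no call for any of these genes, and 0% of all rows passed in each (limma). Between Epo_N and Sham_N, 1803 rows had an unadjusted p under 0.05, among them 1 of the 8 genes, Nqo1, at 0.36 ± 0.17 (limma, adjusted p = 0.637). Gpx1 was 0.38 ± 0.20 higher in Epo_N, with 5 of 6 arrays above all Sham_N arrays, and Nfe2l2 was 0.42 ± 0.26 higher in Epo_N. These differences did not pass, and their intervals (-0.03 to 0.79 and -0.12 to 0.97) leave room for changes of moderate size. Between Epo_Y and Epo_N, 1892 rows and 0 of the 8 genes had an unadjusted p under 0.05, and differences ran from -0.15 for Nqo1 to 0.21 for Mt2. Between Epo_Y and Sham_N the count was 1374 rows and 4 of the 8 genes, Nfe2l2 at 0.62, Gpx1 at 0.50, Mt2 at 0.49 and Mt1 at 0.39. The smallest adjusted p among the 8 genes was 0.775 there (limma), so none was a call. Intervals before adjustment were 0.07 to 1.17 for Nfe2l2, 0.09 to 0.91 for Gpx1, 0.07 to 0.91 for Mt2 and 0.03 to 0.75 for Mt1. They too leave room for changes of moderate size.

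With Sham_Y set aside, the order of the group means varied by gene. Epo_Y had the second-highest mean for Nfe2l2, Gpx1, Mt1, Mt2 and Mt3, and Epo_N for Nqo1 and Gclc. For Srxn1 the means were 7.80 ± 0.24 in Epo_Y, 7.78 ± 0.12 in Epo_N and 7.81 ± 0.10 in Sham_N (SD, n = 6 each), which differ by less than their spread. No neighbours among Epo_Y, Epo_N and Sham_N differed by a call for any of the 8 genes.

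The Epo_Y arrays were spread more widely than the others. All 8 genes had their largest SD in Epo_Y, which held for 45.2% of all rows. The SD of Nfe2l2 was 0.84 in Epo_Y, 0.27 in Sham_Y, 0.32 in Epo_N and 0.27 in Sham_N. For Gpx1 it was 0.66 in Epo_Y, 0.18 in Sham_Y, 0.16 in Epo_N and 0.18 in Sham_N. The median SD over all rows was 0.27 in Epo_Y, 0.22 in Sham_Y, 0.19 in Epo_N and 0.22 in Sham_N. Because the fit shares its estimate of the spread over all groups, the SE of a difference does not show the wider spread of Epo_Y.

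The same arrays of Epo_Y were high across the genes. Replicates 2 and 4 were in the upper 3 of the group for all 8 genes, with mean deviations from the group mean of 0.42 and 0.61. Replicate 3 was the lowest for 7 of the 8, with a mean deviation of -0.58. Replicates are numbered in accession order, which carries no other meaning. Marker levels differed along with these genes: reactive astrocyte markers averaged 7.75 and 7.86 on replicates 2 and 4, and 5.91 on replicate 3. Microglia and macrophage markers averaged 7.38, 7.63 and 6.18 on those 3 arrays, and neuron markers 10.12, 10.04 and 9.79. The array median itself was 5.33 and 5.37 on replicates 2 and 4, the highest of the group, and 5.05 on replicate 3, the lowest of all 24 arrays. The part of these markers and of the array median in the spread was not tested.

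**Figure D3:**
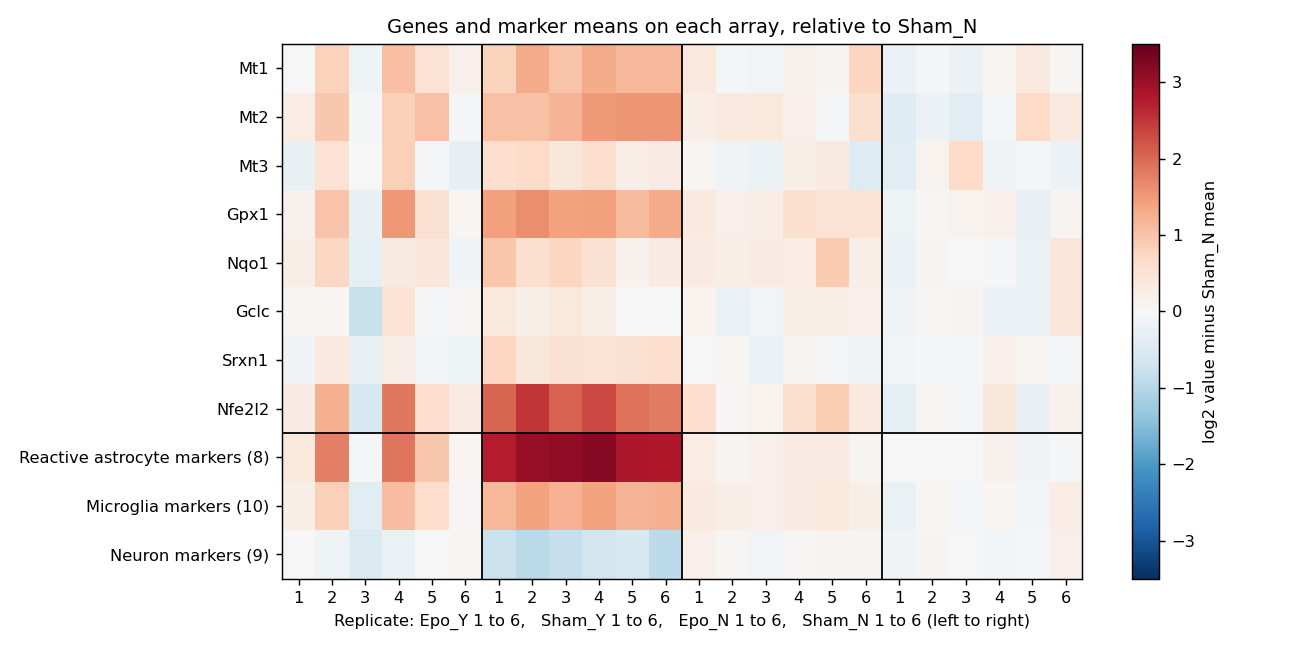
Log2 value on each array minus the Sham_N mean (colour scale from -3.5 to 3.5) for the 8 measured genes and for the mean of 3 marker lists, with arrays grouped as Epo_Y, Sham_Y, Epo_N and Sham_N from left to right. Sham_Y arrays are raised for Nfe2l2, Gpx1, Mt1 and Mt2 and for the glial markers and lowered for neuron markers. Of the Epo_Y arrays, replicates 2 and 4 are highest in reactive astrocyte and microglia markers, and replicate 3 is lowest in neuron markers.

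Nfe2l2 and Gpx1 varied most alike. After each group's mean was removed, their deviations correlated at r = 0.94 (rho = 0.88) over 24 arrays, the highest for either gene among 7990 other rows of 1 symbol with a mean of at least 6. It was 0.92 after centring, and 0.86 without the 2 arrays farthest out, Epo_Y replicates 4 and 3. The arrays share tissue makeup and overall brightness, so r is a description and no p is given. Next for Gpx1 came Herpud1 and Ccn1 (r = 0.94 each), and for Nfe2l2 Msn (0.93) and Ak3 (0.92).

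**Figure D4:**
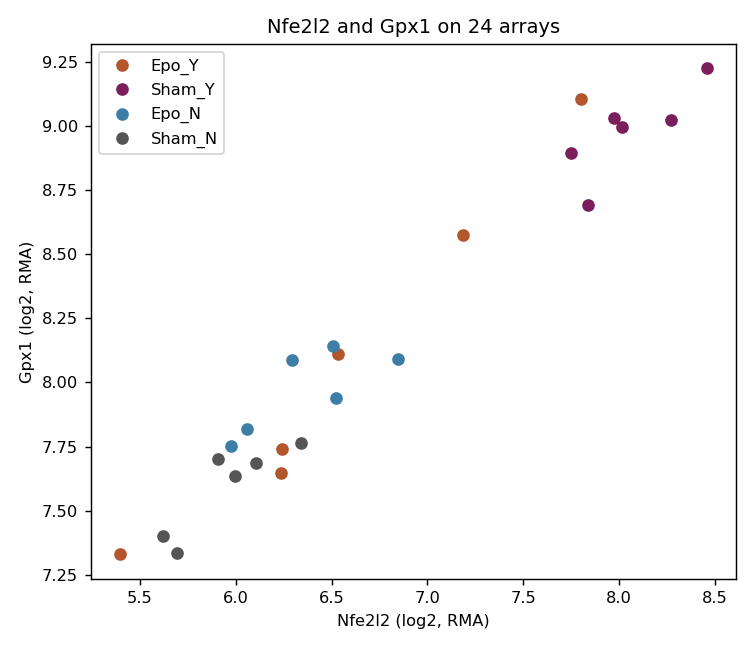
Log2 expression (RMA) of Gpx1 against Nfe2l2 on 24 arrays, with 1 point an array, coloured by group. Sham_Y points lie at the top right, Epo_N and Sham_N points at the lower left, and Epo_Y points run from 5.40 to 7.80 on the Nfe2l2 axis.

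Mt1 and Mt2 were less alike within groups, with r = 0.71, although they are neighbours. Mt3 had r = 0.31 with Mt1 and 0.01 with Mt2. The rows most like Mt1 were Igsf11 (0.84), Gltp (0.83) and Castor1 (0.81), those most like Mt2 were Ndrg2 (0.81), Pik3ip1 (0.80) and Brk1 (0.79), and those most like Mt3 were Scrib (0.89), Id3 (0.88) and Selenom (0.88). Gclc was closest to Tbc1d23 (0.94), Lman2 (0.93) and Inpp5b (0.93), and Nqo1 to Arhgap29 (0.81), Npnt (0.81) and Qsox2 (0.80). Srxn1 was closest to Ndufb7 (0.81), Map2k3 (0.79) and Gatd3a (0.76). After centring, r was 0.75, 0.74 and 0.69 for the rows named for Nqo1, and 0.73, 0.77 and 0.52 for those of Srxn1. Without Epo_Y replicates 2 and 4, the arrays farthest out for Srxn1, its r was 0.80, 0.66 and 0.65. With group means removed, Gclc correlated with Nfe2l2 at r = 0.75, although its own group differences did not pass. For this pair rho was lower, at 0.51, and r was 0.63 after centring.

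Other targets of NRF2 were then examined as a list of 30 genes, of which 23 were measured. In Sham_Y against Sham_N, 12 were higher and 1 was lower, with a median of 0.39, where 11.5% of all rows were higher and 7.6% lower. Hmox1, which encodes the heme-degrading heme oxygenase, ranged from 9.47 to 10.36 in Sham_Y and from 4.90 to 5.60 in Sham_N. The difference of 4.57 ± 0.42 (limma, adjusted p = 3.78e-08) was the largest in the list. Mgst1, a membrane glutathione transferase, was higher by 2.23 ± 0.34, the epoxide hydrolase Ephx1 by 1.20 ± 0.18, and Pgd of the pentose phosphate pathway by 0.90 ± 0.10. The gene that was lower was the glycine transporter Slc6a9, at -0.55 ± 0.08. Some targets did not pass, among them Txn1 (thioredoxin) at 0.04 ± 0.16, Cat (catalase) at 0.24 ± 0.17 and Gstm1 at 0.36 ± 0.20. The Txn1 row averaged 3.45 in Sham_Y and 3.42 in Sham_N, below the median of every array, so it carries little signal. After centring 9 were higher and 1 was lower.

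In Epo_Y against Sham_Y, 8 of these 23 targets were lower and 1 was higher, with a median of -0.31, where 7.83% of all rows were lower and 6.05% higher. Hmox1 averaged 6.44 ± 1.48 in Epo_Y and 9.93 ± 0.31 in Sham_Y (SD, n = 6 each), a difference of -3.49 ± 0.42. Mgst1 differed by -1.55 ± 0.34, Ephx1 by -0.87 ± 0.18 and Pgd by -0.65 ± 0.10, and Slc6a9 was the gene that was higher, by 0.67 ± 0.08. The interaction passed for 7 in the negative direction and 1 in the positive, led by Hmox1 at -3.76 ± 0.59, where 5.75% of all rows were negative calls and 1.55% positive ones. Epo_Y against Sham_N gave no call in the list, with Hmox1 at 1.08 ± 0.42 (limma, adjusted p = 0.775).

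**Figure D5:**
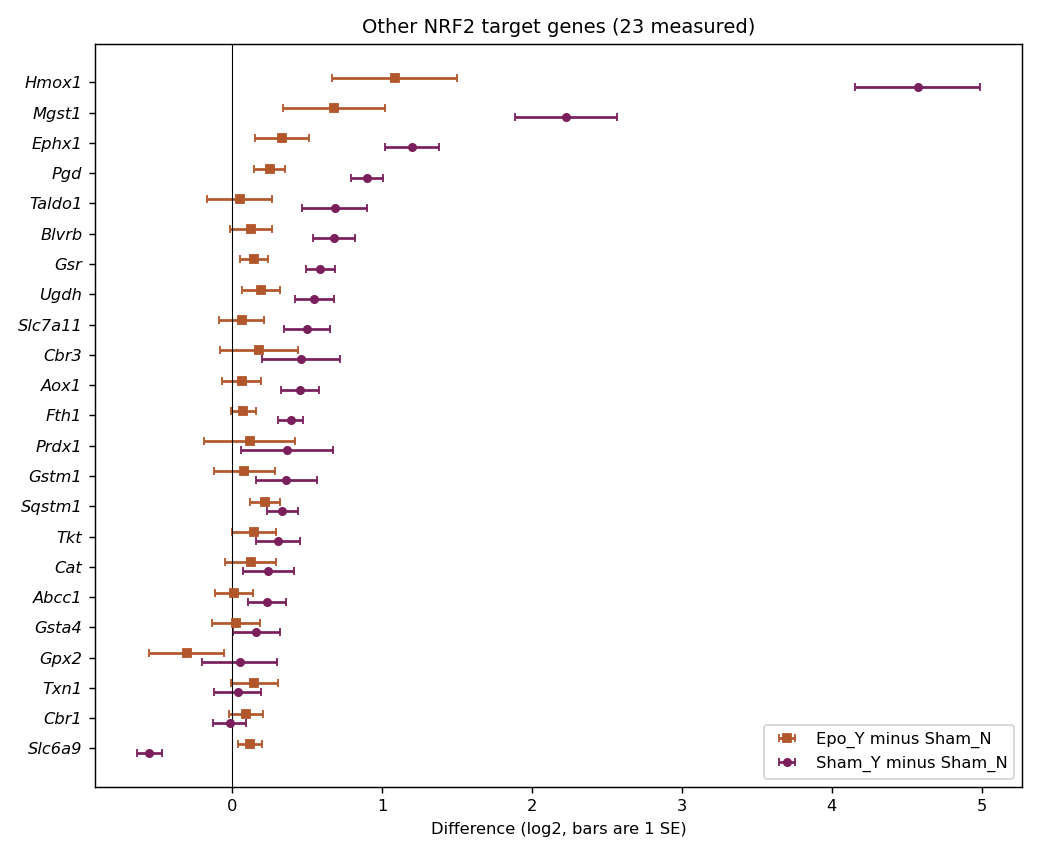
Log2 differences (± 1 SE) of 23 other NRF2 target genes in Epo_Y minus Sham_N (squares) and Sham_Y minus Sham_N (circles); both use the same Sham_N arrays. Hmox1 has its circle at 4.57 and its square at 1.08, and for some genes, such as Gpx2 (square -0.30, circle 0.05) and Txn1 (square 0.15, circle 0.04), the square lies farther from 0 than the circle. The rows of Gpx2 and Txn1 lie below all array medians and carry little signal.

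Regulators of NRF2 did not share a direction. All 12 were measured, and in Sham_Y against Sham_N 2 were higher and 2 lower, with a median of -0.18, where 11.5% of all rows were higher and 7.6% lower. Maff, a small MAF partner, was higher by 1.06 ± 0.12, and Bach1, a repressor that competes with NRF2 at the same elements, by 0.87 ± 0.14. Btrc and Gsk3b, which belong to a KEAP1-independent route of NRF2 degradation, were lower by 0.43 and 0.36 on the log2 scale. Keap1 itself differed by -0.38 ± 0.16 and did not pass (limma, adjusted p = 0.0954). After centring, 7 of the 12 were lower and 2 higher, so the count of lower regulators depends on the scaling. In Epo_Y against Sham_Y, Maff differed by -0.86 ± 0.12 and Bach1 by -0.62 ± 0.14, and in all 2 were lower and 3 higher, where 7.83% of all rows were lower and 6.05% higher. As deposited the interaction passed for Maff and Bach1, 2 of 12 and both negative, where 7.3% of all rows passed. After centring 3 regulators were positive and 2 negative in the interaction.

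Of 16 measured genes of zinc sensing and transport, out of 18 listed, 4 were higher and 1 was lower in Sham_Y against Sham_N, with a median of 0.10, where 11.5% of all rows were higher and 7.6% lower. The importers Slc39a1 and Slc39a14 were higher by 1.73 ± 0.32 and 0.79 ± 0.18, Slc39a7 by 0.59 ± 0.16 and the exporter-family gene Slc30a7 by 0.56 ± 0.17, while Slc39a10 was lower, at -0.45 ± 0.13. Slc39a1 had a mean of 4.88 in Sham_Y and 3.15 in Sham_N, both below the array medians. Mtf1, the zinc sensor, differed by 0.18 ± 0.17 (limma, adjusted p = 0.559), its target Slc30a1 by 0.16 ± 0.09 (limma, adjusted p = 0.254) and Mt4, a further metallothionein of the cluster, by 0.07 ± 0.19 (limma, adjusted p = 0.864), and none of these passed. In Epo_Y against Sham_Y, 3 were lower (Slc39a1, Slc39a14 and Slc30a7) and none higher, with a median of -0.05, where 7.83% of all rows were lower. The same 3 passed in the interaction, all negative, where 5.75% of all rows did. After centring, 4 were higher and 3 lower in Sham_Y against Sham_N, and 2 were higher and 3 lower in Epo_Y against Sham_Y, with a median of 0.08.

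Other antioxidant enzymes, 19 measured of 21, gave 7 higher and 1 lower in Sham_Y against Sham_N, with a median of 0.32, beside 11.5% higher and 7.6% lower among all rows. The secreted peroxidase Gpx3 was higher by 1.96 ± 0.27, Txnip, which binds and inhibits thioredoxin, by 1.59 ± 0.21, Gpx8 of the endoplasmic reticulum by 1.32 ± 0.22 and the peroxiredoxin Prdx4 by 1.31 ± 0.19. The methionine sulfoxide reductase Msra was lower, at -0.43 ± 0.14, and the mitochondrial Sod2 at -0.06 ± 0.11 did not pass. In Epo_Y against Sham_Y, 5 were lower and 1 higher, with a median of -0.17, beside 7.83% lower and 6.05% higher among all rows. Those lower included Gpx3 at -1.70 ± 0.27, Txnip at -0.97 ± 0.21, Gpx8 at -0.87 ± 0.22 and Prdx4 at -0.83 ± 0.19. The interaction passed for 5 of the 19, all negative, beside 5.75% negative among all rows. After centring, 6 were higher and 2 lower in Sham_Y against Sham_N, with a median of 0.14. In Epo_Y against Sham_Y, centring gave 2 higher and 5 lower with a median of -0.05, and the interaction then passed for 4, all negative.

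Markers of cell types also differed between the groups. In Sham_Y against Sham_N, 8 of 8 reactive astrocyte markers were higher, 6 of 10 microglia and macrophage markers were higher and 2 lower, 6 of 8 endothelial and pericyte markers were higher, and 4 of 6 infiltrating leukocyte markers were higher. Of 9 neuron markers 6 were lower and none was higher. General astrocyte markers were higher for 2 of 6, oligodendrocyte lineage markers for 1 of 7 and choroid plexus and ependyma markers for 1 of 6, and 1 of 5 erythroid markers was lower. After centring, 2 astrocyte markers were higher and 2 lower, and 1 oligodendrocyte lineage marker was lower and none higher. The summed linear level of the reactive astrocyte list ran from 2126 to 7538 in Epo_Y, 7838 to 11490 in Sham_Y, 2230 to 2618 in Epo_N and 1856 to 2342 in Sham_N. For microglia and macrophages it ran from 1000 to 3656 in Epo_Y, 3777 to 4832 in Sham_Y, 1462 to 1696 in Epo_N and 1078 to 1511 in Sham_N.

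The neuron list summed to 11830 to 15767 in Epo_Y, 8150 to 11002 in Sham_Y, 14827 to 16300 in Epo_N and 14186 to 17251 in Sham_N. In Sham_Y its sums were thus below every array of the other groups. Leukocyte markers averaged between 3.11 and 4.64 on every array, below all array medians. The choroid plexus list summed to 262 on 1 Sham_N array, and its highest sum in that group was 8775. The table holds no detection call, so no marker could be called absent. In Epo_Y against Sham_Y, 8 of 8 reactive astrocyte, 5 of 10 microglia and macrophage (with 1 higher), 6 of 8 endothelial and 4 of 6 leukocyte markers were lower and 6 of 9 neuron markers higher. The part of these markers in the differences of the metallothioneins and NRF2 genes was not tested.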

How the data were processed

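Right hippocampus RNA of 24 mice was measured on 1 exon array each. The authors deposited log2 values. Per the submitters' processing notes, these came from RMA in Affymetrix Expression Console, for which the sources used here give no version or summary level. This table holds 23238 rows with 0 missing values, and no 2 arrays are identical. Rows were named from the platform annotation: 14939 carry 1 symbol, 989 several and 7310 are unnamed here. Each row was fitted with limma 3.58.1 (R 4.3.3), 1 mean per group over 24 arrays, 20 residual degrees of freedom (23.3 with the prior), and 6 contrasts, with Benjamini-Hochberg adjustment over all rows at 0.05. The fit was tested on simulated data. Groups follow the labels, and replicates, numbered in accession order, do not pair mice.

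The genes and lists (other NRF2 targets, NRF2 regulators, zinc genes, other antioxidant enzymes, glucocorticoid-responsive genes, cell type markers) were chosen with earlier results of these data known. Lists are described by counts and medians, with up to 4 genes past the threshold and largest in difference named per list; further list genes, including Slc6a9, Pgd in Epo_Y minus Sham_Y, Slc39a10, Msra and those that did not pass, were chosen after their values were seen. The rows most like a gene are the 3 with 1 symbol and a mean of at least 6 whose deviations from group means correlate highest with it. Promoters came from RefSeq (GRCm38.p6). Alternatives covered normalization, dim rows, the variance model, weights, the title code, the threshold and each array left out.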

Additional observations from a re-analysis of the deposited data

Results flagged for a closer look

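Nqo1 in Epo_N replicate 5 had a value of 5.22, while the nearest array of its group was at 4.60, a gap large for the range of 6 arrays. It was the only such array among 32 combinations of gene and group, of which chance alone gives about 1 in 20.

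For 5 genes the effect differed between the Epo and the Sham groups by the test of the interaction as deposited. The difference of Epo_Y from Epo_N minus that of Sham_Y from Sham_N was -1.91 for Nfe2l2, -1.28 for Gpx1, -1.10 for Mt2, -0.93 for Mt1 and -0.52 for Srxn1 (limma, adjusted p between 0.00231 and 0.0231). With the title code as a block Nfe2l2 alone of the 5 kept its call, and Srxn1 also lost it after quantile normalization and after centring. These interactions use the same Sham_Y arrays as the comparisons of Sham_Y above and are not separate results.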

How the results depend on the processing

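Over 8 genes and 6 comparisons there were 562 values under alternatives other than leaving out an array: 533 kept their side of the threshold and 29 lost it, with no called value reversed. Only called results could lose a call, and most of the 562 belong to results that were not called as deposited. The calls as deposited were 6 genes in Sham_Y minus Sham_N, 5 in Epo_Y minus Sham_Y and 5 in the interaction. Of the 562 values, 12 changed sign without passing in either setting. The number of the 8 genes that passed in Sham_Y minus Sham_N was 1 (Mt2) with code 3D arrays alone, and 0 in Epo_Y minus Sham_Y and in the interaction, from 11 arrays, where Nfe2l2 differed by 2.19, -1.56 and -1.96 and Gpx1 by 1.34, -0.83 and -1.11. With the title code as a block the interaction passed for 1 gene, and at a threshold of 0.01 for 2. As a random block the code had a consensus correlation of 0.00481.

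With 1 array left out, counts ran from 5 to 7 in Sham_Y minus Sham_N, stayed at 5 in Epo_Y minus Sham_Y, and ran from 5 to 6 in the interaction; the other comparisons gave 0. Nqo1 was lost in Sham_Y minus Sham_N without Sham_Y replicate 1 or 3 or Sham_N replicate 1 or 5 (adjusted p 0.0540 to 0.0642), and Mt3 passed without Epo_Y replicate 4 (0.0478) or Sham_N replicate 3 (0.0188). The Nqo1 interaction passed without Epo_Y replicate 2 (0.0326), Sham_Y replicate 5 (0.0495) or Sham_N replicate 6 (0.0436). Of 1152 such values 20 changed sign without passing. Among all rows that passed in the interaction, 21.2% were higher as deposited, 42.7% after quantile normalization and 57.0% after centring. A filter at a mean of 6 drops Nqo1. Each measured gene has 1 row, so another choice of row could not be run, and the interaction could not be fitted on the groups of 1 contrast alone. Titles read the other way change names and no value. No paired analysis was possible because the replicate numbers come from accession order.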

Other observations

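Glucocorticoid-responsive genes, form a list of 12 that was included because metallothioneins also respond to these hormones. Of these 10 were measured, and in Sham_Y against Sham_N 5 were higher and 0 lower, with a median of 0.34, where 11.5% of all rows were higher and 7.6% lower. Cdkn1a, the cell cycle inhibitor, was higher by 1.85 ± 0.26, Nfkbia, the inhibitor of NF-kB, by 1.44 ± 0.20, the phosphatase gene Dusp1 by 1.30 ± 0.15 and Pdk4, which restrains pyruvate oxidation, by 1.29 ± 0.19. These genes also respond to other signals. Fkbp5 at 0.23 ± 0.16 (limma, adjusted p = 0.380) and Tsc22d3 at -0.02 ± 0.14 (limma, adjusted p = 0.945), both commonly used readouts of the glucocorticoid receptor, did not pass. What part glucocorticoids had in any of these differences was not tested. In Epo_Y against Sham_Y, 5 of the 10 were lower and 0 higher, beside 7.83% lower among all rows, with Nfkbia at -1.34 ± 0.20, Cdkn1a at -1.22 ± 0.26, Pdk4 at -1.17 ± 0.19 and Dusp1 at -1.02 ± 0.15. After centring 4 were lower and 1 higher. The interaction passed for 4, all negative, beside 5.75% of all rows. In the remaining 3 comparisons 0 of the 10 passed.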
